A study of Mus musculus with 653 samples.

Results

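The 9 genes described here encode ligands and receptors of the fetal liver niche, and were followed across single cells of the E10.5 and E13.5 mouse liver. They were chosen by name, and are the 5 ligands *Hgf*, *Kitl*, *Cxcl12*, *Thpo* and *Csf1* and the 4 receptors *Met*, *Kit*, *Cxcr4* and *Epor*. All 9 of 9 members had reads, out of 54195 genes in the count table. The study compared Lgr5-GFP+ cells with cells sorted without regard to GFP, to examine how heterogeneous the hepatoblast pool is. Each sample was 1 cell, sequenced with Smart-seq2, a full-length protocol run on single cells in plate wells.

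The embryos came from males that carry the Lgr5-EGFP-IRES-creERT2 allele and are kept on a C57BL/6 background, crossed with MF1 females, so EGFP expressed from the *Lgr5* locus marked Lgr5 cells. According to the methods, all cells were sorted as Liv2+ CD31- CD45-, where Liv2 is a hepatoblast surface antigen, CD31 marks endothelium and CD45 marks leukocytes. At E10.5 414 cells were analysed, 49.03% of them bulk and 50.97% Lgr5-GFP+ cells, and at E13.5 239 cells, 66.5% of them bulk and 33.5% Lgr5-GFP+ cells. Bulk cells were not selected for GFP, and may include cells that carry it. No label names an animal, litter or sorting session, so each group counted as 1 sample and no p-value was computed. Reads per cell had a median of 1192740 (463347 to 2279700). The labels name 5 library pools, and the median number of detected genes per cell was 4515 and 4488 in pools 1 and 2 but 6606, 6550 and 6280.5 in pools 3, 4 and 5.

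These genes belong to the signalling that passes between the cells of the embryonic liver, which is the main site of blood formation in the fetus. Kitl (stem cell factor) binds Kit, erythropoietin binds Epor and Cxcl12 binds Cxcr4, and these pairs act on blood stem and progenitor cells, as does Thpo (thrombopoietin). Hgf binds Met on hepatoblasts and on migrating muscle progenitors, and Csf1 binds Csf1r on macrophages.

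Cells were placed in lineages by the reads of 4 markers. A cell with more than 10 reads of exactly 1 of *Afp*, *Klf1*, *Pdgfra* and *Pax3* was called by that marker, which gave 61 *Afp* cells (9.34% of all cells), 160 *Klf1* cells (24.5%), 30 *Pax3* cells (4.59%) and a class of *Pdgfra* cells that made up 22.5% of all cells. A further 13 cells had more than 10 reads of several markers and 242 cells (37.1%) had none. All cells are labelled as liver hepatoblast cells, yet only 66 of them had more than 10 *Afp* reads. Marker lists of each lineage were highest in the lineage they name. All 12 of 12 hepatoblast markers were highest in *Afp* cells and 11 of 12 erythroid markers in *Klf1* cells. The same held for 12 of 12 mesenchyme markers in *Pdgfra* cells and 8 of 8 muscle progenitor markers in *Pax3* cells. Each list includes the marker that selected its cells, and the hit of that marker was set by the selection. By the other markers of the lists, these cells are called hepatoblast-like, erythroid-like, mesenchyme-like and muscle progenitor-like. Stage and sort were unevenly spread over the lineages. Of the *Afp* cells, 53 were Lgr5-GFP+ cells from E10.5, and of the *Klf1* cells, 32 were bulk cells from E10.5 and 78.1% were bulk cells from E13.5. *Pdgfra* cells came mostly from E10.5, with 75 bulk and 64 Lgr5-GFP+ cells, and 23 of the 30 *Pax3* cells were Lgr5-GFP+ cells from E10.5.

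The stretches upstream of *Epor*, *Kit* and *Thpo* are shown because these 3 genes mark contrasting cells in the results, *Epor* and *Kit* the *Klf1* cells and *Thpo* the *Afp* cells. *Klf1* itself encodes an erythroid factor that binds CACC sequences, and GATA factors are also central to erythroid genes. Motifs of 2 families were searched on both strands of the 250 bases before each RefSeq start, GATA (those 4 letters after A or T and before A or G) and KLF type (CCNCNCCC, where N is any base). The promoters are those of RefSeq on GRCm38.p6, each is written in the direction of transcription, and capitals mark the bases that match a motif. The *Kit* stretch is cut at the annotated start of the gene, and the other 2 stretches hold 250 bases.
*Epor*, chr9:21963577-21963826, minus strand: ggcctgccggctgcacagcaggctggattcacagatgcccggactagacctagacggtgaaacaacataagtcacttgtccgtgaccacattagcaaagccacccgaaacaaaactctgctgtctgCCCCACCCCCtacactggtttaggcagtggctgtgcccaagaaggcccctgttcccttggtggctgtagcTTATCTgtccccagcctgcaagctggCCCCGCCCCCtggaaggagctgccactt
*Kit*, chr5:75574737-75574915, plus strand: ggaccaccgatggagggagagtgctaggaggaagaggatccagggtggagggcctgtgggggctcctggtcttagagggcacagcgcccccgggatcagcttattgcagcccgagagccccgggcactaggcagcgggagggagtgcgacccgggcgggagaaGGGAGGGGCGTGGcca
*Thpo*, chr16:20734512-20734761, minus strand: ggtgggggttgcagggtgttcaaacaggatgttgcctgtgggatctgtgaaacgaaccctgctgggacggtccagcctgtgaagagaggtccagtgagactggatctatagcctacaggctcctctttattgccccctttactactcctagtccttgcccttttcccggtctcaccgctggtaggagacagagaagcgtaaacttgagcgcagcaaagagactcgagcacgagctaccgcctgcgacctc

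*Epor* held 1 GATA match, 54 bases before its start, and 4 overlapping KLF matches in 2 stretches, and no GATA match overlapped a KLF match. *Kit* held 2 overlapping KLF matches, and *Thpo* held no match in this promoter or in its other RefSeq promoter. All 9 of 9 members had a RefSeq entry, with 12 promoters in all. GATA letters occurred in 2 members (*Epor* and *Hgf*), KLF letters in 8 (all but *Thpo*), and both in the same promoter in 1 (*Epor*). Among all 32851 RefSeq promoters the same window held GATA letters in 26.5%, KLF letters in 45.9% and both in 8.19%. The matches describe the letters of these windows and were not tied to binding.

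A cell is called positive for a gene when it had more than 10 reads of it. The level of a gene in a set of cells is given in RPM, its summed reads divided by the summed reads of these cells on all genes and multiplied by 1000000, with an exact 95% Poisson interval, and shares of positive cells have exact 95% Clopper-Pearson intervals. Where no cell was positive, the share that a count of 0 allows is given as 3 cells of the total. These values cover counting error only, since reads are not independent molecules. On this rule *Epor* was positive in 23.9% of all cells, *Kitl* in 19.3%, *Kit* in 17.8% and *Cxcl12* in 15.6%. *Met* was positive in 51 cells (7.81%) and *Csf1* in 27 (4.13%). *Hgf* and *Thpo* were positive in 15 cells each (2.30%) and *Cxcr4* in 13 (1.99%). The lower counts were also the more uneven ones. A single cell held 51.2% of all *Cxcr4* reads and 40.9% of all *Hgf* reads, against 2.96% for *Epor* and 4.603% for *Kit*. In the annotation used, 7 of 9 members shared no exon base with another gene, but 484 exon bases of *Hgf* overlap *Gm43489* on the same strand and 239 exon bases of *Thpo* overlap *Chrd* on the opposite strand, whose reads were counted without strand.

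**Figure D1:**
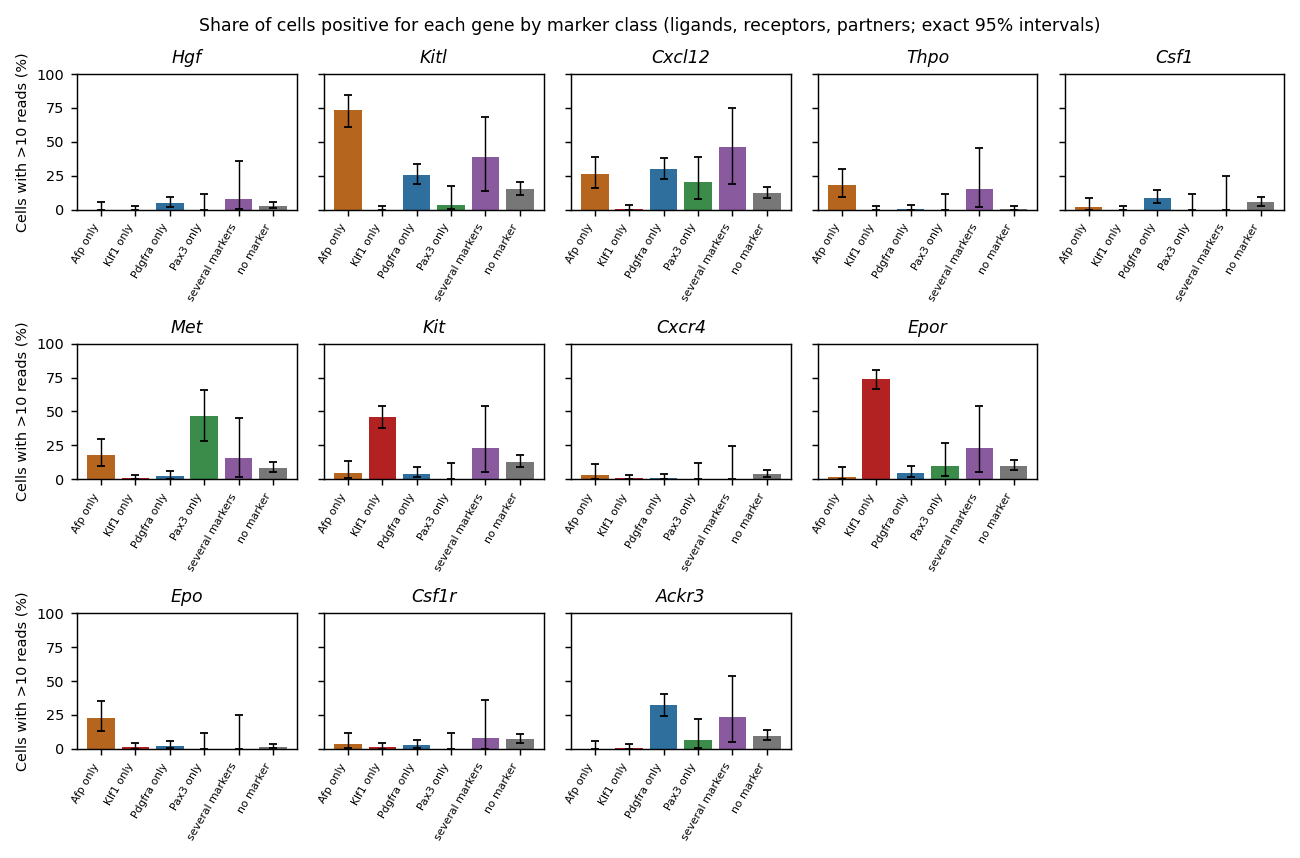
Share of cells with more than 10 reads (y axis, percent) of the 9 members and of the partner genes *Epo*, *Csf1r* and *Ackr3* in the 4 lineages, in cells with several markers and in cells with no marker, with exact 95% intervals. *Kitl* stands at 73.8% in *Afp* cells and *Epor* at 73.8% in *Klf1* cells, while *Hgf* and *Cxcr4* stay below 10% in every class.

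Among the ligands, *Kitl*, on chromosome 10 (100015630 to 100100416, plus strand), was the most widespread, and it was highest in hepatoblast-like cells. Of the *Afp* cells, 45 of 61 were positive (73.8%, 60.9 to 84.2), at 346 RPM (341 to 350). Per *Afp* cell, *Kitl* ranged from 0 to 1970 RPM with a median of 261. Of the *Pdgfra* cells, 38 were positive (25.9%, 18.99 to 33.7), at 59.4 RPM. This level was 5.82-fold below that of *Afp* cells, and 1 cell of 3041 RPM held 28.5% of the *Kitl* reads of the *Pdgfra* cells, which stood at 42.7 RPM without it. Only 1 of 30 *Pax3* cells was positive. *Kitl* was nearly unread in erythroid-like cells, with 29 reads over 160 *Klf1* cells, of which 0 were positive, which allows a share of up to 1.88%. Both the share intervals and the ranges of the *Kitl* level over pools were separate between *Afp* cells (198.9 to 404 RPM) and *Pdgfra* cells (9.55 to 159.9 RPM).

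*Thpo*, on chromosome 16 (20724454 to 20734511, minus strand), was read in the same lineage, but in fewer cells. Reads passed the threshold in 11 of 61 *Afp* cells (18.03%, 9.36 to 29.98), at 43.99 RPM (42.5 to 45.5). The median *Afp* cell had 0 *Thpo* reads, the median of the 11 positive cells was 172.998 RPM and the highest was 681 RPM. In the other 3 lineages *Thpo* was close to 0, with 1 positive *Pdgfra* cell (0.111 RPM), 5 reads over all *Klf1* cells and 0 reads over all *Pax3* cells. The 13 cells with several markers stood at 39.7 RPM of *Thpo*, with 2 positive cells, of which 1 held 84.9% of the reads. The *Thpo* level in *Afp* cells was 396-fold that in *Pdgfra* cells, and the share intervals of the 2 lineages were separate. The pool ranges of *Thpo* overlapped, since 1 pool with 5 or more *Afp* cells had 0 *Thpo* reads in them. Pool 2 held most *Afp* cells, and without it 32.1% of them were positive for *Thpo*. Per kilobase of exon, a scale that allows genes to be compared, *Kitl* stood at 58.5 RPKM and *Thpo* at 16.7 RPKM in *Afp* cells.

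*Cxcl12*, on chromosome 6 (117168535 to 117181367, plus strand), encodes the chemokine that holds blood stem cells in their niche. It was highest in mesenchyme-like cells, where 44 cells were positive (29.9%, 22.7 to 38.03), at 200.2 RPM (198.2 to 202.3). The median *Pdgfra* cell had 0.865 RPM of *Cxcl12* and the highest 3872 RPM, so most of the level came from a minority of cells. It was also read in 16 of 61 *Afp* cells (26.2%, 15.8 to 39.1), at 61.2 RPM, and in 6 of 30 *Pax3* cells (20%, 7.71 to 38.6), at 40.1 RPM. These share intervals overlapped that of *Pdgfra* cells. The level was 3.27-fold higher in *Pdgfra* than in *Afp* cells over all pools, but the pool ranges overlapped, at 13.9 to 395 RPM against 41.99 to 75.2 RPM. Of the 4 pools with 5 or more cells of both lineages, *Pdgfra* cells were higher in pools 3 and 4 and lower in pool 2 (29.8 against 75.2 RPM) and in pool 5 (13.9 against 42.4 RPM), so the order of these 2 lineages did not hold within pools. In *Klf1* cells 1 of 160 was positive and held 97.3% of the *Cxcl12* reads there.

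*Hgf*, on chromosome 5 (16553495 to 16620152, plus strand), encodes the hepatocyte growth factor and was rare. Only 7 *Pdgfra* cells were positive (4.76%, 1.94 to 9.57), at 7.13 RPM (6.74 to 7.53), and the highest of these cells had 346 RPM. None of the 61 *Afp*, 160 *Klf1* and 30 *Pax3* cells was positive, and counts of 0 allow shares of up to 4.92%, 1.88% and 10%. The level in *Pdgfra* cells was 47.4-fold that in *Klf1* cells, the next in order at 0.150 RPM, but the share intervals overlapped. Of these 7 cells 5 came from pool 3, and without that pool 1.74% of *Pdgfra* cells were positive for *Hgf*.

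*Csf1*, on chromosome 3 (107741048 to 107760469, minus strand), encodes the macrophage growth factor and was also highest in mesenchyme-like cells, at a higher level than *Hgf*. It was positive in 13 *Pdgfra* cells (8.84%, 4.79 to 14.7), at 38.4 RPM (37.5 to 39.3), and the highest of them, at 1395 RPM, held 25.2% of the reads. Of these 13 cells, 4 were Lgr5-GFP+ cells from E13.5. They held 446, 738, 926 and 1740 of the 6915 *Csf1* reads of *Pdgfra* cells, so much of this level came from them. In *Afp* cells 1 of 61 was positive for *Csf1* (1.10 RPM), and in *Klf1* and *Pax3* cells 0 were. The level was 34.9-fold higher in *Pdgfra* than in *Afp* cells, while the share intervals of the 2 lineages overlapped. Among the 3 ligands that were highest in *Pdgfra* cells, *Cxcl12* led per kilobase of exon with 24.5 RPKM, before *Csf1* with 7.27 and *Hgf* with 0.992.

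Among the receptors, *Epor*, on chromosome 9 (21958897 to 21963506, minus strand), was the most widespread and was highest in erythroid-like cells. Of the *Klf1* cells, 73.8% were positive (66.2 to 80.4), at 339 RPM (336 to 342). *Epor* ranged from 0 to 1357 RPM per *Klf1* cell, with a median of 252. The next lineage was *Pax3*, with 3 of 30 cells positive and 27.1 RPM, of which 1 cell held 60.96%. Of the *Pdgfra* cells 7 were positive (8.96 RPM) and of the *Afp* cells 1 of 61 (0.530 RPM). The level of *Epor* in *Klf1* cells was 12.5-fold that in *Pax3* cells, and the share intervals and the pool ranges were both separate.

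*Kit*, on chromosome 5 (75574916 to 75656722, plus strand), encodes the receptor of stem cell factor and was highest in the same cells, though in fewer of them. It was positive in 73 of 160 *Klf1* cells (45.6%, 37.7 to 53.7), at 76.01 RPM (74.7 to 77.3). The median *Klf1* cell had 3.30 RPM of *Kit* and the highest 506.99 RPM, so *Kit* was spread more unevenly over *Klf1* cells than *Epor* was. In *Afp* cells 3 of 61 were positive, at 21.1 RPM, and 1 of these cells held 47.9% of the reads. The level was 3.59-fold higher in *Klf1* than in *Afp* cells, with separate share intervals and overlapping pool ranges. In *Klf1* cells *Epor* stood at 170.5 RPKM and *Kit* at 8.53 RPKM.

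*Met*, on chromosome 6 (17463800 to 17573980, plus strand), encodes the Hgf receptor and was highest in muscle progenitor-like cells. Of the *Pax3* cells, 14 of 30 were positive (46.7%, 28.3 to 65.7), at 95.8 RPM (92.7 to 98.997), with a median of 6.89 and a highest value of 512 RPM per cell. *Met* was also positive in 11 of 61 *Afp* cells (18.03%, 9.36 to 29.98), at 25.3 RPM, the highest *Afp* cell standing at 334 RPM. The level was 3.78-fold higher in *Pax3* than in *Afp* cells and the ranges over pools with 5 or more such cells were separate, at 83.5 to 198.6 RPM against 9.91 to 52.5 RPM, but the share intervals overlapped. The *Pax3* range comes from pools 3, 4 and 5. In pools 1 and 2 together the order turned, at 0.132 RPM in 6 *Pax3* cells against 14.9 RPM in 36 *Afp* cells. Of the *Pdgfra* cells 3 were positive (2.28 RPM) and of the *Klf1* cells 1 of 160.

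*Cxcr4*, on chromosome 1 (128588199 to 128592293, minus strand), the Cxcl12 receptor, was hardly read in any lineage. Its levels were 0.530 RPM in *Afp* cells (2 of 61 positive), 0.351 in *Pax3* cells (0 of 30), 0.256 in *Klf1* cells (1 of 160) and 0.133 in *Pdgfra* cells (1 positive cell). The neighbours in this order differed by less than 2-fold and their share intervals overlapped, so *Cxcr4* had no order of lineages that this depth could show. According to the methods the sort took only CD45- cells, and *Cxcr4* is carried by many leukocytes. The part of the sort in the low *Cxcr4* level was not tested. In the sorted series 42 cells had 3 or more leukocyte markers, and 5 of them were positive for *Cxcr4*, at 3.58 RPM.

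**Figure D2:**
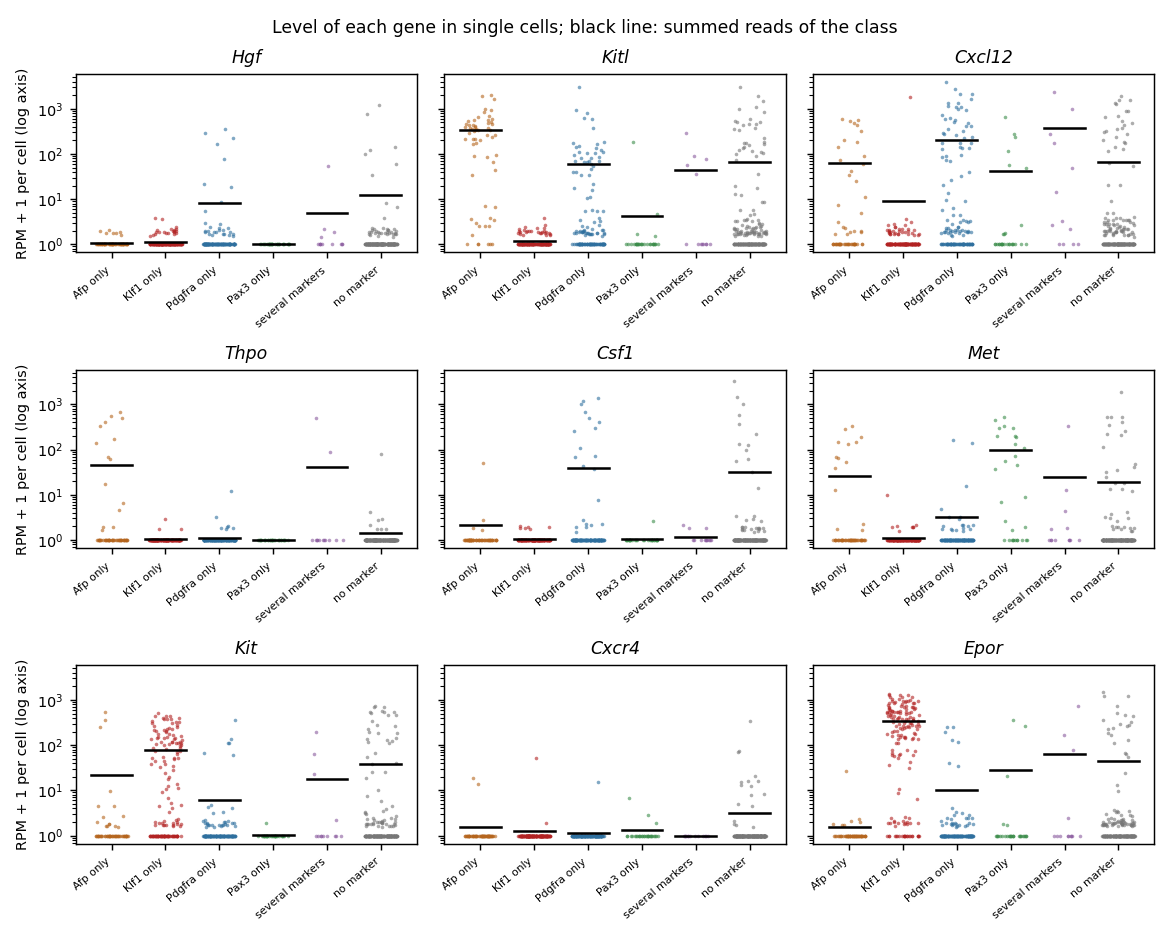
Level of each member in every cell (RPM + 1, log axis) in the 4 lineages, in cells with several markers and in cells with no marker, where a point is a cell and the black line is the level from the summed reads of the class. *Kitl* in *Afp* cells and *Epor* in *Klf1* cells have medians of 261 and 252 RPM, whereas the level of *Cxcl12* in *Pdgfra* cells comes from a minority of cells above a median of 0.865 RPM.

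A gene was called for a lineage when its level there was at least 2-fold that of the next lineage, among genes with a mean of at least 1 RPM over the 4 lineages. By this rule 8 of 8 members that passed the filter were called, against 33.1% of the 13902 genes that passed. *Cxcr4* did not pass the filter. Of these 8 members 2 were called for *Afp* cells (8.8% of all genes), 2 for *Klf1* cells (6.87%), 3 for *Pdgfra* cells (10.9%) and 1 for *Pax3* cells (6.47%). The median fold over the next lineage was 9.17 for the members and 1.49 for all genes that passed. The members were picked as known niche genes, so the count is a description of that choice and is given beside the share of all genes.

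The lineages differ in stage and sort, and the same order was therefore read within 1 group. Among the Lgr5-GFP+ cells from E10.5, *Kitl* stood at 358 RPM in *Afp* cells (41 of 53 positive), 44.3 in *Pdgfra* cells (18 of 64) and 0.239 in *Pax3* cells. *Thpo* stood at 35.6 RPM in these *Afp* cells (9 of 53 positive) and 0.0606 in *Pdgfra* cells. *Met* stood at 115.1 RPM in *Pax3* cells (13 of 23 positive) and 18.3 in *Afp* cells (8 of 53). All 3 orders were those of the whole series. *Cxcl12* stood at 93.9 RPM in *Pdgfra* cells (13 of 64 positive, 20.3%) and 45.7 in *Afp* cells (13 of 53, 24.5%), the same order of levels with a slightly larger share in *Afp* cells. *Csf1* (4.71 RPM in *Pdgfra* cells) and *Hgf* (0.497 RPM, 1 of 64 positive) were low in this group. Among the bulk cells from E10.5, *Epor* stood at 273 RPM in *Klf1* cells (81.2% positive) and 9.41 in *Pdgfra* cells, and *Kit* was positive in 71.9% and 4.0% of these cells.

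The partner genes *Epo*, *Ackr3* and *Csf1r* had their own order. *Epo*, which encodes erythropoietin, was positive in 14 of 61 *Afp* cells (22.95%, 13.2 to 35.5), at 53.3 RPM, 61.7-fold above the next lineage, so the ligand of Epor was read in the lineage in which *Kitl* and *Thpo* were highest. Its exon length is short, and at 62.3 RPKM it stood close to *Kitl* in *Afp* cells. *Ackr3*, which encodes a scavenging receptor of Cxcl12, was positive in 47 *Pdgfra* cells (31.97%, 24.5 to 40.2), at 39.6 RPM, where *Cxcl12* itself was highest. *Csf1r*, the Csf1 receptor, was highest in *Afp* cells only through 1 cell that held 97.1% of its reads there. The summed leukocyte markers of the *Afp* cells also came from 1 cell, to 98.7%.

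Cells with no marker, 37.1% of all cells, held 37 of the positive cells for *Kitl* (29.4%), 31 for *Kit* (26.7%), 29 for *Cxcl12* (28.4%) and 24 for *Epor* (15.4%), parts below their part of all cells. For *Thpo* it was only 1 of 15 (6.67%). The parts were larger for *Met* (20 of 51, 39.2%), *Csf1* (13 of 27, 48.1%), *Hgf* (7 of 15, 46.7%) and *Cxcr4* (9 of 13, 69.2%). Of these 242 cells, 180 had 3 or more markers of at least 1 list and 62 had not. A cell can carry several lists, and the sort, according to the methods, left out CD31+ and CD45+ cells. *Kit* was positive in 9 of 31 of the cells with endothelial markers (29.03%) and in 7 of 29 with leukocyte markers, and *Kitl* in 10 of 31 with endothelial markers (32.3%), 18 of 84 with mesenchyme markers and 7 of 13 with mesothelium markers. Both genes were thus read in cells that carried endothelial markers, whereas *Cxcl12* was positive in 0 of these 31 and in 21 of 84 cells with mesenchyme markers (25%). The 13 cells with megakaryocyte markers stood out for *Epor*, with 12 positive at 255 RPM, while 0 of them were positive for *Kit*. *Csf1r* was positive in 13 of 29 cells with leukocyte markers. Of the 9 cells with no marker that were positive for *Cxcr4*, 4 carried leukocyte markers, and the highest of the 9, at 338 RPM, carried neural markers and held 61.4% of the reads.

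Ligands and their receptors shared from 0 to 27 cells. Beside each count stands the number of cells that the product of the 2 shares over all cells would give, as a description with no test. *Hgf* (15 cells) and *Met* (51 cells) shared 0 cells (product 1.17), which allows a share of up to 0.459%. *Kitl* and *Kit* shared 14 cells (2.14%, 1.18 to 3.57, product 22.4), which is 11.1% of the *Kitl* cells and 12.1% of the *Kit* cells. Of these 14 cells 9 had no marker, 3 were *Pdgfra* cells, 1 was an *Afp* cell and 1 had several markers, and 9 cells remain without pool 3 and 8 without pool 4. *Epo* and *Epor* shared 1 cell (product 5.26), and *Cxcl12* and *Cxcr4* shared 1 cell, from pool 3 (product 2.03). For these 4 pairs the shared cells were fewer than the product, by about 1 cell in *Hgf* with *Met* and in *Cxcl12* with *Cxcr4*. In the other 2 pairs they were more. *Csf1* and *Csf1r* shared 3 cells (product 1.08), all of them with no marker, and *Cxcl12* and *Ackr3* shared 27 cells (product 11.9), 20 of them *Pdgfra* cells, or 26.5% of the *Cxcl12* cells and 35.5% of the *Ackr3* cells.

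Genes of the same lineage were also read together. *Kit* and *Epor* shared 67 cells (product 27.7), 61 of them *Klf1* cells, which is 57.8% of the *Kit* cells and 42.9% of the *Epor* cells. *Kitl* was positive in 11 of the 15 *Thpo* cells (73.3%, product 2.89) and in 10 of the 22 *Epo* cells (45.5%, product 4.25). *Met* was positive in 8 of the 15 *Thpo* cells (53.3%, product 1.17), 7 of them *Afp* cells. Of all *Afp* cells, 73.8% were positive for *Kitl* and 18.03% for *Met*. The *Kitl* share was thus near that of the lineage in *Thpo* cells and below it in *Epo* cells. Some hepatoblast-like cells thus carried reads of several ligands and of *Met* together. *Hgf* cells were positive for *Cxcl12* in 10 of 15 cases (66.7%), 7 of them in *Pdgfra* cells, and for *Csf1* in 6 of 15 (40%). Counted over the 9 members, 37.2% of all cells were positive for none, 38.9% for 1 and 18.1% for 2. A *Klf1* cell was positive for at most 2 members, a *Pdgfra* cell for at most 5 and an *Afp* cell for at most 6.

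The library pools moved with these shares. In pools 1 and 2, where fewer genes were detected per cell, *Epor* was positive in 20 of 53 *Klf1* cells (37.7%), against 98 cells (91.6%) in pools 3, 4 and 5, and its level was 208.2 against 412 RPM. *Kit* was positive in 10 of 53 *Klf1* cells (18.9%) against 63 cells (58.9%), at 38.3 against 96.9 RPM. *Kitl* in *Afp* cells went with the pools in share, at 23 of 36 (63.9%) against 22 of 25 (88%), and the other way in level, at 397 against 266 RPM. *Met* was positive in 0 of 6 and 14 of 24 *Pax3* cells, *Cxcl12* in 7 of 52 and 37 of 95 *Pdgfra* cells, *Csf1* in 1 of 52 and 12 of 95, and *Hgf* in 0 of 52 and 7 of 95. *Thpo* was positive in 3 of 36 and 8 of 25 *Afp* cells, at similar levels of 46.55 and 39.98 RPM. The median number of detected genes was lower in pools 1 and 2 in every lineage, for example 4594 against 6369 in *Klf1* cells and 4421 against 6643 in *Pdgfra* cells. The part of this in the shares was not tested.

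**Figure D3:**
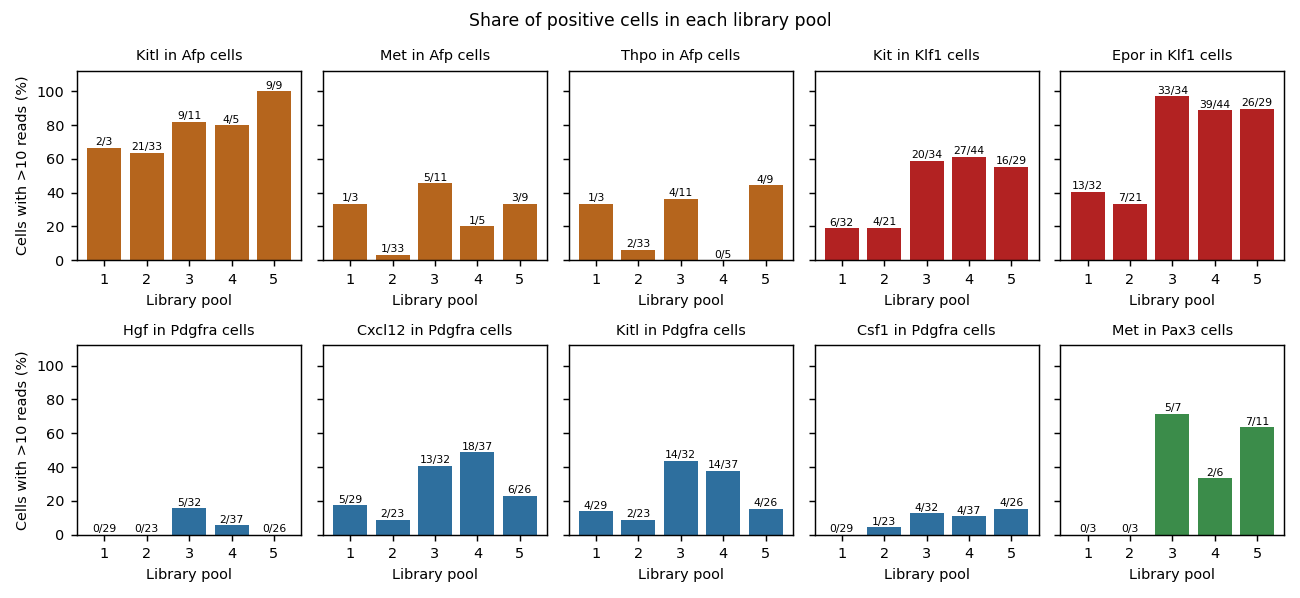
Share of cells with more than 10 reads (y axis, percent) in each of the 5 library pools for 10 pairs of a gene and a lineage, with the number of positive cells and of all cells at each bar. *Epor* and *Kit* in *Klf1* cells are lower in pools 1 and 2, at 37.7% and 18.9% together, than in pools 3, 4 and 5, at 91.6% and 58.9%.

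Stage and sort were compared over all cells of a group, where a level mixes the number of cells that carry a gene with the RNA per cell, and in summed levels these cannot be told apart. The groups are set side by side as 4 samples. In the order E10.5 bulk, E10.5 Lgr5-GFP+, E13.5 bulk and E13.5 Lgr5-GFP+, *Kitl* stood at 66.8, 123.8, 0.175 and 82.4 RPM, with 35, 75, 0 and 16 positive cells. *Epor* stood at 59.3, 9.67, 314 and 41.4 RPM, with 37, 10, 98 and 11 positive cells. *Kitl* was thus lowest, and *Epor* highest, in the bulk cells from E13.5, of which 78.6% were *Klf1* cells. *Kit* stood at 29.2, 8.84, 85.9 and 27.5 RPM (32, 13, 63 and 8 positive cells), and *Cxcl12* at 128.4, 83.6, 15.95 and 135.5 RPM (45, 48, 2 and 7 positive cells). *Thpo* was read almost only at E10.5, at 4.06 and 12.03 RPM in bulk and Lgr5-GFP+ cells (3 and 12 positive cells), against 4 reads and 1 read at E13.5. *Afp* cells, in which *Thpo* was highest, numbered 6 and 53 in the E10.5 groups but 0 and 2 in the E13.5 groups. A change of *Thpo* with stage within *Afp* cells could therefore not be read. *Met* was highest in the Lgr5-GFP+ cells from E10.5, at 32.5 RPM with 36 positive cells, against 3.88, 6.45 and 11.2 RPM in the other groups. Of these 36 cells 13 were *Pax3* cells, 8 *Afp* cells and 11 had no marker.

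Between the stages of the bulk sort, a fold of at least 2 was passed upwards at E13.5 by 3 of 9 members, against 14.1% of all genes that passed the filter, and downwards by 4, against 35%. *Kit* (log2 difference 1.56), *Epor* (2.41) and *Cxcr4* (4.72) were higher at E13.5. *Kit* and *Epor* were higher in 5 of 5 pools, while 1 cell held 72.97% of the *Cxcr4* reads at E13.5. *Kitl* (-8.58), *Thpo* (-7.49), *Hgf* (-3.37) and *Cxcl12* (-3.01) were lower at E13.5, and *Kitl* and *Cxcl12* were higher there in 0 of the 4 pools that could be compared. The bulk cells from E13.5 included 0 *Afp* cells and 1 *Pdgfra* cell, against 6 and 75 at E10.5. *Met* (0.73) and *Csf1* (0.49) were not past the fold, and each rested on 1 cell, since without the cell with most reads in each group the log2 differences were -2.62 and -7.12.

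Between the stages of the Lgr5-GFP+ sort, 4 of 8 members were higher at E13.5 (24.2% of all genes) and 2 were lower (25.7%). *Hgf* (log2 difference 5.21, 5 against 2 positive cells), *Csf1* (4.43), *Epor* (2.10) and *Kit* (1.64) were higher, and *Met* (-1.54) and *Thpo* were lower. *Kitl* (-0.59) and *Cxcl12* (0.70) were not past the fold. The 80 Lgr5-GFP+ cells from E13.5 are the smallest group, and 62 of them had no marker. Their *Kitl* came mostly from these, with 11 of 16 positive cells.

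Between the sorts at E10.5, 2 of 8 members were higher in Lgr5-GFP+ than in bulk cells (14.2% of all genes) and 4 were lower (13.3%). *Met* (log2 difference 3.06) and *Thpo* (1.57) were higher, *Thpo* in 2 of 2 pools and *Met* in 3 of 4, and without pool 2 only 1 member was past the fold upwards. *Hgf* (-4.35), *Epor* (-2.62), *Csf1* (-1.84) and *Kit* (-1.72) were lower, *Epor* in 5 of 5 pools. *Kitl* (0.89) was below the fold, with 75 against 35 positive cells, and 41 of the 75 were *Afp* cells. Between the sorts at E13.5, 4 of 8 members were higher in Lgr5-GFP+ cells (38.2% of all genes) and 3 were lower (20.8%). *Kitl* (8.88), *Hgf* (4.23), *Cxcl12* (3.09) and *Csf1* (2.10) were higher and *Epor* (-2.92), *Kit* (-1.64) and *Cxcr4* (-1.56) were lower. Without pool 3 the *Cxcr4* difference was 0.71. The contrasts of stage and of sort share groups of cells, so they are not independent of each other.

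**Figure D4:**
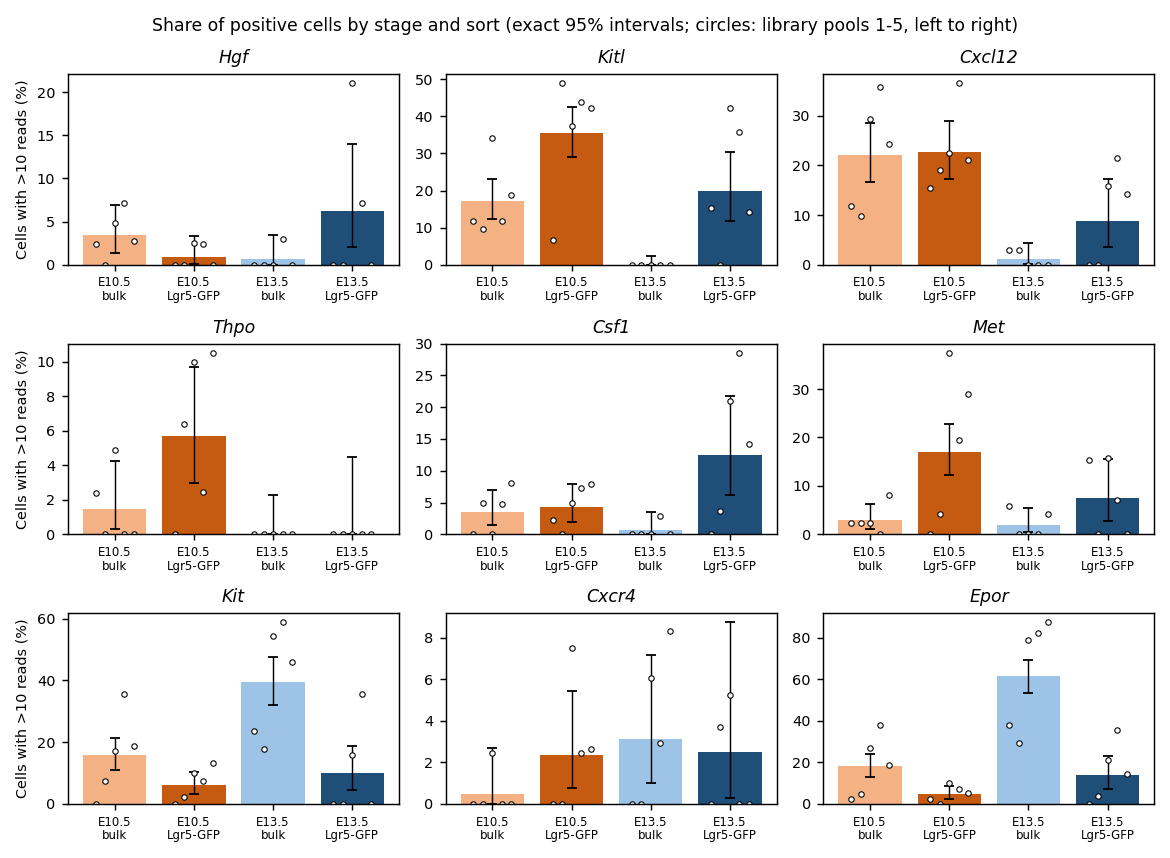
Share of cells with more than 10 reads (y axis, percent) of each member in the 4 groups of stage and sort, as bars with exact 95% intervals and a circle for each library pool. *Epor* and *Kit* have most positive cells in the E13.5 bulk group (98 and 63), where *Kitl* and *Thpo* have 0.

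Within lineages, 2 comparisons had at least 10 cells on both sides. Between the sorts of *Pdgfra* cells at E10.5 (64 Lgr5-GFP+ and 75 bulk cells), 1 of 7 members was higher in Lgr5-GFP+ cells (17.8% of all genes) and 3 were lower (17.2%). *Met* (log2 difference 4.25) was higher, with 2 against 1 positive cells, and *Hgf* (-3.26), *Csf1* (-2.67) and *Kit* (-1.56) were lower, with at most 5 positive cells on either side. *Cxcl12* was positive in 13 of 64 and 26 of 75 cells (log2 difference -0.99) and *Kitl* in 18 and 16 cells (-0.77), neither past the fold.

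Between the stages of *Klf1* cells in the bulk sort (32 of them from E10.5), 0 of 3 members were higher at E13.5 (16.3% of all genes) and 1 was lower (18.8%). That member was *Cxcl12*, of which 1 cell held 99.5% of the reads at E10.5. *Epor* stood at 356 RPM at E13.5 (72% positive) and 273 RPM at E10.5 (81.2%), a log2 difference of 0.38. *Kit* stood at 67.8 RPM at E13.5 and was positive in 40% of these cells, against 71.9% of those at E10.5, and its level had a log2 difference of -0.71. Neither was past 2-fold. *Kit* was thus higher at E13.5 over the whole bulk groups (1.56) but lower at E13.5 within *Klf1* cells, while *Epor* was higher in both, by less within *Klf1* cells. In pools 3, 4 and 5 alone, *Kit* was positive in 52.6% of 78 *Klf1* cells at E13.5 (40.9 to 63.99) and in 84.6% of 26 cells at E10.5 (65.1 to 95.6), and *Epor* in 93.6% and 88.5%. There the *Epor* level was 482 RPM at E13.5 and 231 RPM at E10.5, past 2-fold, unlike in all pools together. The level of *Epor* was higher at E13.5 in each of these 3 pools, by 0.998 to 1.19 on the log2 scale, and that of *Kit* in 2 of 3, with differences of -0.76 to 0.17. Pools 1 and 2, with only 6 *Klf1* cells from E10.5, went the other way for *Epor*, at 176.2 RPM at E13.5 against 449 RPM at E10.5, and *Kit* stood at 31.5 against 89.6 RPM there.

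Some genes of later erythroid cells moved in the same cells. In *Klf1* cells of the bulk sort, *Hba-a1*, an adult haemoglobin chain, stood at 101.2 RPM at E10.5 and 1559 RPM at E13.5. *Slc4a1*, the anion exchanger of the red cell membrane, stood at 2.22 and 85.7 RPM. *Gata1* moved less, at 341 and 479 RPM, and *Myb*, a progenitor factor, stood at 101.2 and 99.3 RPM. Correlations of log2(RPM + 1) were read within the 78 *Klf1* cells at E13.5 in pools 3, 4 and 5. *Kit* had -0.61 with *Hba-a1*, -0.53 with *Slc4a1* and 0.48 with *Myb*. With the other erythroid markers of the list, *Kit* had values from -0.56 (*Hbb-bt*) to 0.12 (*Nfe2*). These included -0.13 for *Gata1*, -0.07 for *Tal1* and -0.01 for *Ermap*. *Epor* had 0.23 with *Hba-a1* and -0.15 with *Kit*. Cells with more *Hba-a1* thus tended to have less *Kit*, which was not seen for *Epor*. These are descriptions over cells of 1 group that share libraries and depth.

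**Figure D5:**
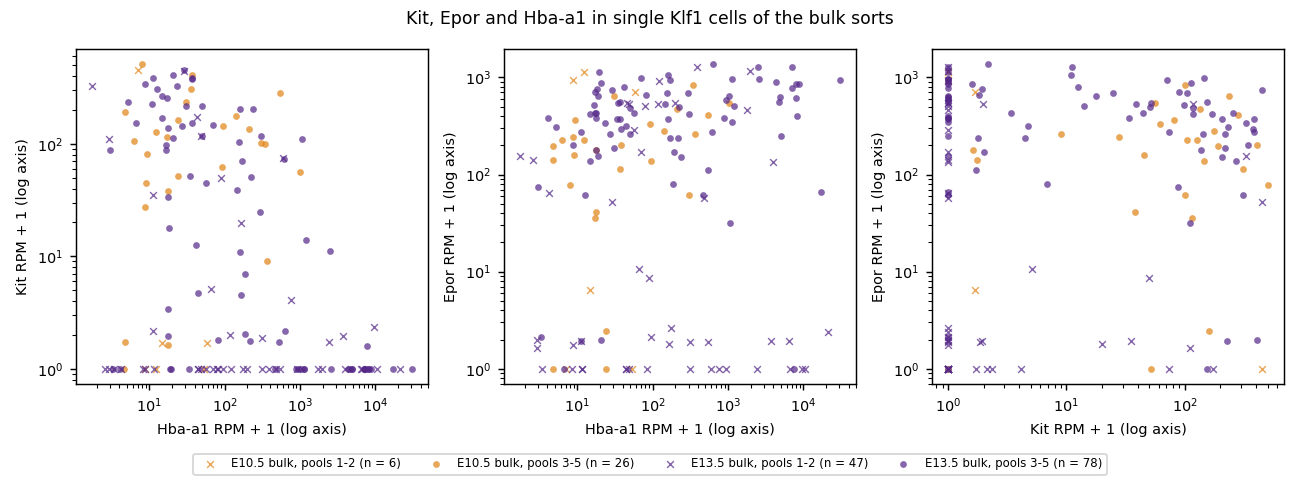
*Kit* and *Epor* against *Hba-a1* in single *Klf1* cells of the bulk sort (RPM + 1, log axes on both), by stage and by library pools 1 and 2 or 3, 4 and 5 (6 and 26 cells at E10.5, 47 and 78 at E13.5). Over the 78 cells, *Kit* is lower in cells with more *Hba-a1* (r = -0.61), and *Epor* is not (r = 0.23).

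Lists of genes around these pathways were read by the same 2-fold rule, beside 33.1% of all genes called and a median fold of 1.49. Of the proteases, inhibitors and co-receptors around Hgf and Met, 8 of 11 that passed the filter were called (72.7%, median fold 3.64). Those highest in *Afp* cells were *Hgfac* (59.8 RPM) and *Hpn* (150 RPM), proteases that cleave pro-Hgf, *F12* (81.8 RPM), and the protease inhibitors *Spint1* (15.2 RPM) and *Spint2* (259 RPM). *Mst1r* (13.01 RPM), a receptor related to Met, and *Cd44* (137.02 RPM) were highest in *Klf1* cells and *Nrp1* (247 RPM) in *Pdgfra* cells. Of the genes around Kit and Epor signals, 5 of 12 were called (41.7%, median fold 1.49), all of them highest in *Klf1* cells. They were the kinase *Jak2* (75.9 RPM), *Stat5a* (46.9 RPM), the lipid kinase subunit *Pik3cd* (26.9 RPM), the phosphatase *Ptpn6* (60.4 RPM) and *Gata2* (23.3 RPM). Of the genes known as targets of STAT5, 2 of 11 were called (18.2%, median fold 1.61), the transferrin receptor *Tfrc* (346 RPM) and *Trib3* (62.1 RPM), both in *Klf1* cells.

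Of the genes around Cxcr4, 6 of 11 were called (54.5%, median fold 2.15). In *Klf1* cells these were *Arrb1* (158.1 RPM), *Rac2* (226 RPM), *Dock2* (34.2 RPM), *Rgs1* (7.21 RPM) and *Dpp4* (5.55 RPM), the last encoding a protease that cleaves Cxcl12, and in *Pdgfra* cells *Ackr3*. *Arrb1*, *Rac2* and *Dock2* were positive in 60.6%, 60.6% and 20.6% of *Klf1* cells, in which *Cxcr4* stood at 0.256 RPM. *Rgs1* was positive in only 1.88% of *Klf1* cells and *Dpp4* in 5%. For *Rgs1* 1 cell held 59.7% of the reads there, and for *Dpp4* 1 cell held 32%. Of 24 other niche factors and their receptors, 21 had reads, 10 passed the filter and 7 were called (70%, median fold 3.11). *Dlk1* (1189 RPM), *Il1r1* (154.9 RPM), *Lifr* (120.5 RPM) and *Il6ra* (8.85 RPM) were highest in *Afp* cells. *Ptn* (2068 RPM), *Bmp4* (347 RPM) and *Angpt1* (41.995 RPM) were highest in *Pdgfra* cells, in which *Cxcl12*, *Csf1* and *Hgf* were also highest.

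The genes whose pattern was most like each member were read from the correlation of log2(RPM + 1) over all cells, among 10352 genes with more than 10 reads in at least 5% of cells. For *Epor* they were *Gata1* (0.73), *Cited4* (0.72) and *Gfi1b* (0.72), and for *Kit* *Myb* (0.51), *Mir142hg* (0.50) and *Kcnn4* (0.49). For *Kitl* they were the plasma protein genes *Ambp*, *Fgg* and *Fgb* (0.53 each), and for *Thpo* *Foxa2* (0.48), *Fga* (0.47) and *Gstt1* (0.45). The genes nearest to these 4 members thus include known erythroid, progenitor and hepatoblast genes. *Met* was nearest to *Pcdh19* (0.46), *Plch1* (0.40) and *Pax3* (0.38), and *Cxcl12* to *Rarres2* (0.38), *Cdkn1c* (0.36) and *Gpc3* (0.36). *Csf1* was nearest to *Col6a1* (0.37), *Ccdc80* (0.31) and *Col14a1* (0.31), and *Hgf* to *Col6a1* (0.27), *Gdf10* (0.26) and *Ptger4* (0.26), so *Col6a1*, a collagen gene, led for both. *Cxcr4* had only weak values, the highest with *S100a8* (0.29), *Alox5ap* (0.29) and *S100a9* (0.27). Among the members themselves the highest values were 0.36 for *Kit* with *Epor* and for *Hgf* with *Csf1*, and the lowest was -0.25 for *Kitl* with *Epor*. All cells share libraries and a detection limit, and the correlations are descriptions.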

How the data were processed

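Single cells were sequenced with Smart-seq2 (single end, without strand), and each sample is 1 cell. The deposited table holds raw counts of reads per gene for 54195 genes, which the authors made with STAR 2.6.0c and featureCounts of Subread 1.6.2 on GRCm38.p6 (Scanpy 1.3.3 is also named), as the submitters' processing notes and the methods give. The design text names 471 cells at E10.5 and 472 at E13.5. The 414 (203 bulk, 211 Lgr5-GFP+) and 239 (159 and 80) with counts after the authors' quality filters were used, with 0 columns left unused, and the rest were not analysed here. A second table of normalised, batch-corrected values was not used.

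With GENCODE M21, 54042 IDs were named. The table lists 25903 genes at 0 throughout, such as *Actc1*, *Msln*, *Tubb3*, *Csf2* and *Igf2* of the lists read here, and nothing was drawn from these. Some genes of the lists are not reported here. Group and stage came from the sample labels. The members and lists were chosen with earlier results of these data known. Named were all members, lineage markers, list genes past 2-fold or pairing with a member, and the 3 most correlated genes of each member. Calls used a fold of at least 2 and a mean of at least 1 RPM, a level of 3 reads or fewer served as floor, and pool values needed 5 cells. No doublet caller was run, and the 13 cells with several markers were kept apart from the lineages (61 *Afp*, 160 *Klf1*, 147 *Pdgfra* and 30 *Pax3* cells of 653). Of 365 index pairs 230 occur in more than 1 pool, and swapped reads between pools were not tested. A cell with 6 to 10 marker reads lay just under the rule, which held for 1 *Afp*, 9 *Klf1*, 1 *Pdgfra* and 1 *Pax3* cell, against 0, 2, 10 and 1 cells with 11 to 20. The alternatives were other read thresholds, thinning to 100000 reads, other definitions of the lineages and leaving out pools. The 2-fold call between E13.5 bulk and E10.5 bulk cells was tested on simulated Poisson counts, which are more even over cells than these reads. Thinning was checked on the counts themselves, and the other steps were not tested in this way. All steps were run with Python 3.11.15, numpy 2.4.6, pandas 2.3.3, scipy 1.17.1 and matplotlib 3.10.9.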

Additional observations from a re-analysis of the deposited data

Results flagged for a closer look

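For *Hgf* and *Csf1* the difference between the sorts had opposite directions at the 2 stages. *Hgf* was lower in Lgr5-GFP+ than in bulk cells at E10.5 (log2 difference -4.35, higher in 0 of 4 pools) and higher at E13.5 (19.02 against 1.02 RPM, 4.23, higher in 2 of 2 pools), a difference of 8.58 between the stages on the log2 scale. It rests on 2, 7, 5 and 1 positive cells, and 1 cell held 73.2% of the *Hgf* reads of the E10.5 bulk cells and 86.1% of those of the E13.5 bulk cells. *Csf1* was lower at E10.5 (3.95 against 14.2 RPM, -1.84, higher in 0 of 2 pools) and higher at E13.5 (85.1 against 19.9 RPM, 2.10, 1 of 1 pool), a difference of 3.94. At E13.5 1 bulk cell held 99.7% of the *Csf1* reads of its group, and without the highest cell of each sort the log2 difference was 9.88. The differences between the stages were not tested, because each group was 1 sample.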

How the results depend on the processing

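No paired analysis was possible because the labels give no replicate numbers and each group is 1 sample, and values within library pools stand beside the comparisons instead. The lineage with the highest level was the same in 14 of 14 settings for *Kitl*, *Kit*, *Cxcl12*, *Thpo*, *Epor* and *Csf1*, in 13 of 14 for *Hgf* and *Met* and in 10 of 14 for *Cxcr4*. Without pools 3, 4 and 5 *Hgf* was highest in *Klf1* cells and *Met* in *Afp* cells. Shares depended on the pools and on the read threshold. Without pools 3, 4 and 5 the positive share was 0.0% for *Hgf* in *Pdgfra* cells, for *Met* in *Pax3* cells and for *Cxcr4* in *Afp* cells, 18.9% for *Kit* and 37.7% for *Epor* in *Klf1* cells, 13.46% for *Cxcl12* and 1.92% for *Csf1* in *Pdgfra* cells and 8.33% for *Thpo* in *Afp* cells. Without pools 1 and 2, chosen after seeing the data, it was 88% for *Kitl*, 58.9% for *Kit*, 38.9% for *Cxcl12*, 32% for *Thpo* and 91.6% for *Epor*. With any read counted as positive it was 19.7% for *Hgf*, 90.2% for *Kitl*, 61.9% for *Kit*, 56.5% for *Cxcl12* and 85.6% for *Epor*. With more than 50 reads *Cxcr4* was at 0.0%, and with the lineage set by the erythroid marker list *Epor* was at 61.8%. Leaving out 1 pool at a time gave 1.74 to 5.93% for *Hgf*, 69.2 to 85.7% for *Kitl*, 0.0 to 7.14% for *Cxcr4*, 13.46 to 32.1% for *Thpo* and 67.5 to 82.03% for *Epor*.

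Without pools 3, 4 and 5, 0 members were higher and 4 lower at E13.5 in Lgr5-GFP+ cells, where *Met* (log2 difference 0.76), *Kit* (-5.46) and *Csf1* (-0.92) turned, and 1 member was higher in Lgr5-GFP+ cells at E13.5, where *Cxcl12* (-6.22) turned. Leaving out 1 pool at a time gave 1 to 3 members higher in Lgr5-GFP+ cells at E10.5 and -3.22 to 0.71 for *Cxcr4* between the sorts at E13.5. Cells with both *Hgf* and *Met* were 15 with any read counted and 1 after thinning. Thinning only removes reads, so counts after it that exceed those of the main rule rest on a lower threshold. The counts of shared cells after thinning are therefore not comparable with the others. Cells with both *Kitl* and *Kit* were 73 with any read, 1 without pools 3, 4 and 5, and 8 to 14 without 1 pool. Cells with both *Cxcl12* and *Cxcr4* were 3 with any read, 2 after thinning, 0 with more than 50 reads or without pools 3, 4 and 5, and 0 to 1 without 1 pool. The cause of these changes was not tested. Leaving out the cell with most reads of a member was also chosen after seeing the data. At this depth the shares of *Hgf* and *Cxcr4* rest on at most 15 positive cells in the series.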
